A study of Mus musculus with 6 samples.

Results

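The *Apod* *Dlk1* *Gpc3* fibroblasts were a small set among the cells that male mice gave from the lower abdominal muscle (LAM), the muscle wall that weakens in scrotal hernia. They were the barcodes in column runs 139 to 144 of the deposited table, the 24th pass through the 6 samples in column order, with at least 500 unique molecular identifiers (UMIs). This set is called column group 24. It held 422 of the 63647 deposited barcodes: 66, 67 and 94 from wild-type (WT) replicates 1, 2 and 3 and 56, 55 and 84 from Aromhum replicates 1, 2 and 3. What put the columns in this order is not given in the sources used here, and the group is described below by its marker genes.

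The mice were FVB/N males of 9 to 10 weeks, and each of the 6 libraries came from 1 mouse. Aromhum mice, labelled Arom, carry the human aromatase gene *CYP19A1* with its own human promoters, and the controls were WT littermates. A pair of littermates, 1 of each genotype, was processed on each of 3 dates, and the sources used here do not say whether the replicate numbers mark the dates. Aromatase turns androgens into estrogens, and the study asked how this changes the cells of the LAM. The dissociated tissue was filtered to remove large fibres and read with the 10x Genomics 3′ chemistry. *CYP19A1* had 0 UMIs in the column group 24 barcodes of each WT mouse, which allows up to 7.57, 5.90 and 4.11 counts per 1000000 UMIs (CPM), and 4, 1 and 10 UMIs in Aromhum replicates 1, 2 and 3. Over the 3 mice of each genotype it was at least 6.78-fold higher in Aromhum mice.

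*Apod* encodes apolipoprotein D, a secreted carrier of small lipids made by fibroblasts of peripheral nerve among other cells. *Dlk1* encodes a transmembrane protein related to the Notch ligands that holds back adipocyte formation, and only its paternal copy is used. *Gpc3* encodes glypican 3, a cell-surface heparan sulfate proteoglycan that binds growth factors. Fibroblasts build the collagen scaffold of a muscle, and those of its tendons, nerves and vessels differ in the genes they use.

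The summed depth of column group 24 ran from 206853 to 726290 UMIs in the Aromhum mice and from 396548 to 729313 in the WT mice, with sample medians of 3760 to 8510 UMIs per barcode. Of the 422 barcodes, 130 had over 5% mitochondrial UMIs, 98 had over 2500 genes, and 1 was marked as a doublet. The limits given in the paper on genes (200 to 2500), UMIs (no fewer than 1000) and mitochondrial share (5% or less) kept 204, and its further removal of outliers by median absolute deviation was not applied here. The barcode sequence of 4 members also occurred in another library, and none occurred in column group 24 of 2 libraries.

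All 6 marker genes were higher in column group 24 than in the other fibroblast-like column groups in each of the 6 mice. Those others were column groups 3, 8, 10, 26 and 27, with 23940 barcodes, whose highest-scoring marker list was a fibroblast list. Levels are CPM of UMIs summed per mouse, given as mean ± SD over 6 mice, and they are a description with no test, because the columns may have been grouped with these same genes. *Apod* (GRCm38 chr16:31296192-31314808) was at 27338, 21517 and 23773 CPM in the WT mice and at 25676, 21131 and 16409 CPM in the Aromhum mice. The lowest of these 6 values lay far above the highest other column group, which had 2602 CPM with the mice pooled, and the mean was 22641 ± 3871 CPM against 755 ± 209 in the other fibroblast-like groups. *Dlk1* (chr12:109452823-109463336) was at 171 ± 86.5 CPM against 2.05 ± 1.74, and *Gpc3* (chrX:52272426-52613950) was at 909 ± 144 CPM against 117 ± 87.3. *Cp*, which encodes the copper-carrying ferroxidase ceruloplasmin, was at 769.8 ± 96.8 CPM against 47.6 ± 7.44. *Trf*, which encodes the iron carrier transferrin, was at 211 ± 59.6 CPM against 4.38 ± 2.52, and *Cxcl5*, a chemokine that attracts neutrophils, was at 1117 ± 745 CPM against 38.8 ± 24.97. Column group 24 ranked 1 of the 30 column groups for every marker but *Trf*, for which it ranked 4. For *Cp* the next was column group 21, which scored highest on the lymphatic endothelial list, at 524 CPM against 751 here with the mice pooled.

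**Figure D1:**
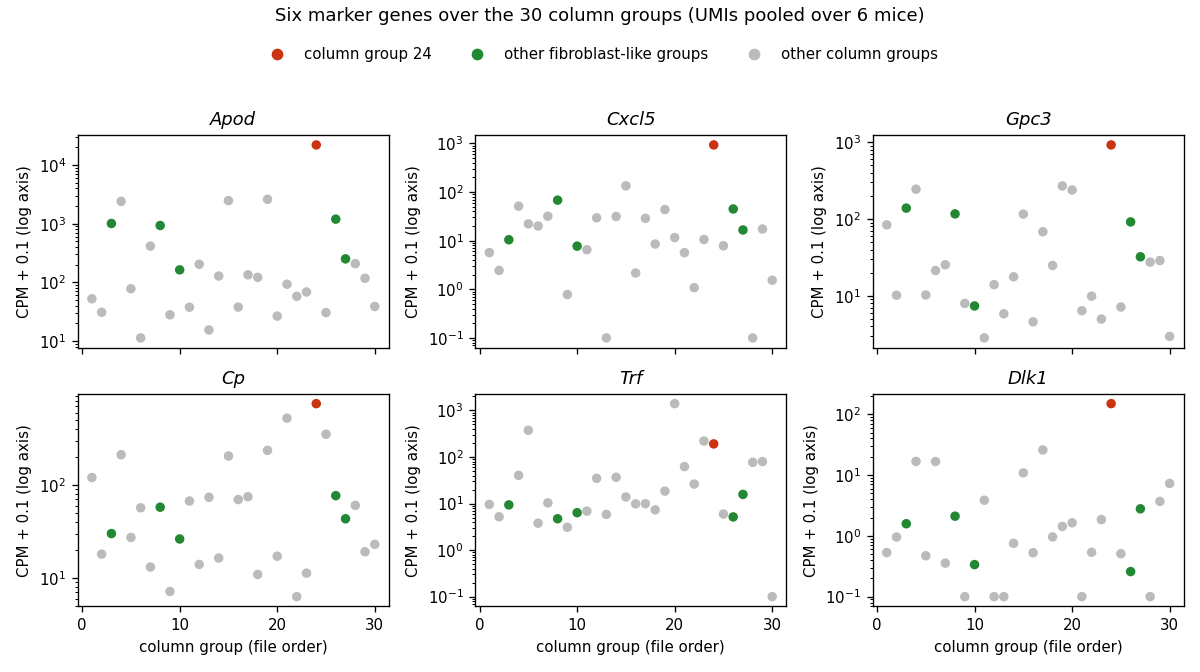
CPM plus 0.1 on a log axis for each of the 6 marker genes in each of the 30 column groups in column order, with UMIs pooled over the 6 mice. Column group 24 is the highest point in every panel but that of *Trf*, where it ranks 4.

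The share of single barcodes with a UMI of a marker was also compared at equal depth. Thinned to 1000 UMIs, a depth that 415 members reached, 97.6% of the members had an *Apod* UMI, against 33.5% of the other fibroblast-like barcodes and 1.200% of endothelial-like barcodes, which should lack the gene. Unthinned, these shares were 99.5%, 73.0% and 4.75%, at median depths of 6172.5, 9728.5 and 4640 UMIs. *Dlk1* had a UMI in 9.16% of the thinned members, 0.160% of the other fibroblast-like and 0.0400% of the endothelial-like barcodes. *Gpc3* gave 52.5%, 8.70% and 0.440%. The 3 markers that name the group were thus each found in a larger share of its barcodes than in either comparison. This too is a description and no test. Unthinned, 366 of the 422 members had a UMI of at least 3 of the 6 markers, 19 of all 6, and 1 of none.

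Secreted signals varied widely among the members. *Apod* went from 55.6 UMIs per 10000 at the 10th percentile of barcodes, through a median of 211, to 433 at the 90th. *Cxcl14*, a chemokine of epithelia and connective tissue, had no UMI in 48.8% of the members and 101 UMIs per 10000 at the 90th percentile. *Cxcl5* had no UMI in 67.3% and 30.7 UMIs per 10000 at the 90th percentile. A barcode without a UMI of a gene may still express it.

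**Figure D2:**
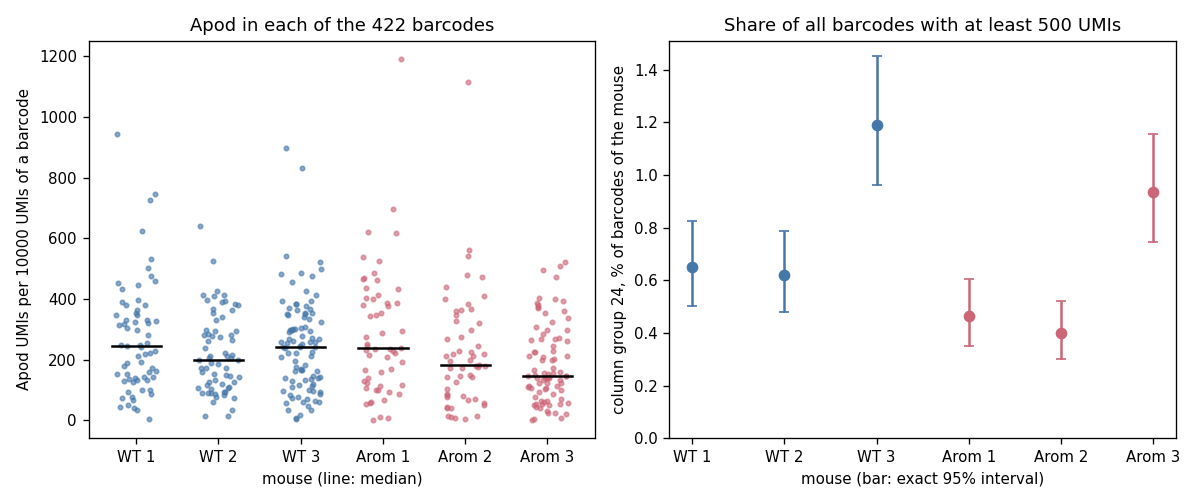
Left, *Apod* UMIs per 10000 UMIs in each of the 422 barcodes by mouse, with the median of each mouse. Right, the percent of each mouse's barcodes that lay in column group 24 with its exact 95% interval; the shares run from 0.400% in Aromhum replicate 2 to 1.19% in WT replicate 3, and the genotypes overlap.

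The genes that distinguished the group included carriers, secreted factors and adhesion proteins. Of 2481 genes with a mean of at least 50 CPM, 468 were higher in each mouse than in the other fibroblast-like groups. Among the 20 with the largest ratio, *Apoe*, which encodes the lipid carrier apolipoprotein E, was at 3263 ± 846 CPM against 223 ± 126. *Saa1*, an acute phase protein, was at 227 ± 113 CPM against 14.6 ± 18.0, and *Gal*, the neuropeptide galanin, was at 201 ± 138 CPM against 9.06 ± 6.61. *Tenm2*, a teneurin of cell contacts, was at 50.7 ± 20.5 CPM against 0.215 ± 0.222, and *Cst6*, a cystatin that inhibits cysteine proteases, was at 73.4 ± 26.03 CPM against 1.43 ± 0.657. Column group 24 ranked 1 of 30 for 11 of these 20 genes, which also held *Apod*, *Dlk1*, *Cp*, *Trf* and *Cxcl5*. The other 10 were *6030408B16Rik*, *Shisa3*, *Sbspon*, *Rasgrp2*, *Aspa*, *Nipal1*, *Vit*, *Fetub*, *Plxdc1* and *Gpt2*, with ratios of means from 10.45 for *Gpt2* to 94.7 for *6030408B16Rik*.

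Several chemokines and the proteoglycan genes *Dcn* and *Lum* were higher than in the other fibroblast-like groups, and *Col1a2* and *Col3a1* were lower on average. *Ccl2*, which attracts monocytes, was at 11453 ± 2881 CPM against 4607 ± 1277, and *Cxcl1*, which attracts neutrophils, was at 8067 ± 1554 CPM against 3010.2 ± 731. *Ccl11*, the eosinophil attractant eotaxin, was at 3739 ± 522 CPM against 503 ± 99.7, and *Cxcl14* was at 3511 ± 918 CPM against 491 ± 250.5. These 4 chemokines were higher than in the other fibroblast-like groups in 6 of 6 mice. The proteoglycans decorin and lumican bind collagen fibrils: *Dcn* was at 43421 ± 7534 CPM against 22461 ± 6743 and *Lum* at 6285 ± 686 CPM against 2059 ± 339.6, also higher in 6 of 6 mice. *Col1a2*, a chain of type I collagen, was at 3473 ± 563 CPM against 6988 ± 2472 and lower in 6 of 6 mice, and *Col3a1*, type III collagen, was at 4239 ± 839 CPM against 7773 ± 3152 and lower in 5 of 6.

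Some genes of tendon and of the *Esr1*-high hernia-associated fibroblasts (HAFs) of this muscle were low, and the list of the *Mmp3*-high HAFs was mixed. *Fmod* and *Tnmd*, which encode the tendon proteins fibromodulin and tenomodulin, were at 2.85 ± 1.75 CPM against 491 ± 247 and 2.95 ± 2.98 CPM against 233 ± 135. *Ren1*, on the list of *Esr1*-high HAF markers, was at 27.0 ± 31.5 CPM against 5484 ± 4487, and *Pnoc* of the same list, named after its values were seen, was at 12.3 ± 13.9 CPM against 2932 ± 1787. *Nppc* of that list was at 171 ± 60.2 CPM against 467 ± 488 and higher in 3 of 6 mice. Of the *Mmp3*-high HAF list, *Mmp3*, a matrix metalloprotease, was at 16.7 ± 19.9 CPM against 232 ± 266, *C4b* at 65.2 ± 58.7 CPM against 321 ± 349 and *Saa3* at 19.5 ± 38.2 CPM against 194 ± 301, the first and last named after their values were seen, while *Ptx3*, a pentraxin, was at 1641 ± 587 CPM against 929 ± 534 and *Il33*, an alarmin cytokine, at 343 ± 137 CPM against 144 ± 94.4. Its sum was 5676 ± 857 CPM against 2558 ± 1999.7, carried by *Cxcl14*, given above, and *Ptx3*. *Ly6a*, the surface antigen used to sort fibro-adipogenic progenitors, was at 334 ± 94.8 CPM against 1605 ± 255. *Fmod*, *Tnmd*, *Ren1*, *Pnoc* and *Ly6a* were lower than in the other fibroblast-like groups in 6 of 6 mice. *Pdgfra*, the receptor that marks fibroblasts of muscle, also named after its values were seen, was at 249 ± 54.0 CPM against 246 ± 59.2 and higher in 3 of 6 mice.

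The list of endoneurial fibroblasts, the cells inside nerves, scored highest in column group 24 of the 30. *Sox9*, a transcription factor of cartilage and nerve fibroblasts, was at 147 ± 41.0 CPM against 17.2 ± 2.02 and higher in 6 of 6 mice. *Osr2*, another transcription factor of this list, was at 95.9 ± 39.0 CPM against 36.5 ± 17.7 and higher in 5 of 6, and *Etv1* was at 53.4 ± 19.1 CPM against 8.34 ± 3.98 and higher in 6 of 6. *Wif1*, a secreted Wnt inhibitor and the 4th gene of the list, was at 3.04 ± 3.41 CPM against 61.7 ± 57.5 and lower in 6 of 6, so the group is called here by its own markers. The pan-fibroblast list summed to 55676 to 74372 CPM per mouse. 2 more lists of nerve were low in sum yet higher than in the other fibroblast-like groups in 6 of 6 mice: perineurial cells, which sheathe nerve bundles, at 102 ± 34.0 CPM against 37.1 ± 11.8, and glia at 86.2 ± 22.8 CPM against 23.4 ± 22.9. Column group 24 ranked 5 of the 30 in the score of each. With the mice pooled, *Etv1*, given above, was at 49.6 CPM here, 294 CPM in column group 4, and 86.0 and 60.6 CPM in column groups 15 and 19. Column group 4 scored highest on the glia list, and column groups 15 and 19 on the perineurial list. After column group 24, column groups 4, 15 and 19 were also the highest for *Apod*, at 2398, 2470 and 2602 CPM. Column groups 4 and 19 were the next highest for *Gpc3*, at 244 and 269 CPM. The part of nerve cells in the levels was not tested. Of the perineurial list *Cldn1*, a claudin of tight junctions, was at 31.9 ± 14.6 CPM against 0.415 ± 0.167, and of the glia list *Cdh19*, a cadherin, was at 38.2 ± 15.6 CPM against 0.184 ± 0.160, while *Sox10*, the transcription factor that defines Schwann cells, had 1 UMI. Of other cell types, smooth muscle and pericyte lists summed to 35.3 to 135 CPM, macrophage to 5.51 to 55.0 CPM with 2 of 7 genes at 0, T cell to 0 to 4.83 CPM with 3 of 5 genes at 0, and muscle stem cell to 2.52 to 11.8 CPM with 2 of 5 genes at 0.

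The share of all barcodes in column group 24 was lower on average in Aromhum mice, by less than the SD over the 3 mice of either genotype. It was 0.649%, 0.619% and 1.19% in WT and 0.466%, 0.400% and 0.936% in Aromhum mice, of all barcodes with at least 500 UMIs. The mean was 0.819 ± 0.321% in WT and 0.6005 ± 0.292% in Aromhum mice (SD, n = 3 each), a difference of -0.219 percentage points with p = 0.5 in a 2-sided exact permutation test, whose lowest possible p is 0.1. The exact (Clopper-Pearson) 95% interval of the lowest share was 0.301% to 0.520% and that of the highest was 0.962% to 1.45%, for counting error only. Of barcodes in fibroblast-like groups, the shares were 1.73%, 2.39% and 4.98% in WT and 1.09%, 0.787% and 2.26% in Aromhum mice, a difference of -1.66 points (exact permutation p = 0.2). Replicate 3 had the highest share of its genotype by both denominators, and without WT replicate 3 the differences were -0.0339 and -0.681 points.

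Between genotypes, the complement and acute phase genes *C3*, *C4b* and *Lbp* and the protease inhibitor gene *Timp1* rose in column group 24 of Aromhum mice. The summed UMIs of the chemokine gene *Cxcl9* were also higher, most of them from a single barcode in each Aromhum mouse. *Foxs1*, *Angptl7* and *Saa1* were among the genes that fell. In edgeR's quasi-likelihood test on UMIs summed per mouse, 17 of 4630 genes tested passed an adjusted p of 0.05 (0.367%), 11 higher (0.238%) and 6 lower (0.130%) in Aromhum mice. For all 17 the 3 mice of one genotype lay above the 3 of the other, as they did for 15.1% of all genes tested. None of the 17 passed among the 204 barcodes within the limits of the paper, where 4 other genes did: *Cxcl5*, *Dio2*, *Atf3* and *Zfp36*, the last 3 named after their values were seen. Without Aromhum replicate 3, which gave the most UMIs of its genotype, 49 genes passed, 15 of the 17 among them.

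*C3*, the central component of complement (GRCm38 chr17:57203970-57228136), was at 78.2, 55.0 and 79.5 CPM in the WT mice and at 300.4, 309 and 222 CPM in the Aromhum mice. Every Aromhum mouse lay above every WT mouse, and the log2 fold change was 1.88 ± 0.22 (SE, adjusted p = 0.00134, edgeR). *C4b*, a component of the classical pathway that activates C3, was at 27.7, 15.7 and 20.6 CPM in the WT mice and at 87.9, 169 and 70.2 CPM in the Aromhum mice. Its groups did not overlap either, with a log2 fold change of 2.18 ± 0.35 (SE, adjusted p = 0.0146, edgeR), and its reads may be shared with the near-identical *C4a*. *Lbp*, which hands bacterial lipopolysaccharide to its receptor, was at 83.2, 82.6 and 87.8 CPM in the WT mice and at 234, 266 and 194 CPM in the Aromhum mice, and rose by a log2 fold change of 1.37 ± 0.19 (SE, adjusted p = 0.00816, edgeR). *Kng2*, a kininogen from which kinins are cut, was at 20.2, 15.7 and 20.6 CPM in the WT mice and at 55.0, 58.0 and 70.2 CPM in the Aromhum mice, with a log2 fold change of 1.68 ± 0.28 (SE, adjusted p = 0.0146, edgeR), and its reads may be shared with *Kng1*.

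*Saa1* moved the other way from these. It was at 235, 354 and 367 CPM in the WT mice and at 121, 111 and 173 CPM in the Aromhum mice, with all Aromhum mice below the WT mice and a log2 fold change of -1.22 ± 0.22 (SE, adjusted p = 0.0199, edgeR); its reads may be shared with *Saa2*. It passed in 10 of 17 alternative settings, with log2 fold changes from -1.52 to -0.65, and not without WT replicate 2 or 3 or Aromhum replicate 1 or 2. The complement and acute phase list had 3 higher and 1 lower of 13 tested (median log2 fold change 0.24), beside 0.238% higher and 0.130% lower and a median of -0.000812 over all genes tested. The 3 that rose were *C3*, *C4b* and *Lbp*, and the 1 that fell was *Saa1*.

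*Timp1*, an inhibitor of matrix metalloproteases, was at 53.0, 35.4 and 101 CPM in the WT mice and at 634, 232 and 218 CPM in the Aromhum mice. The lowest Aromhum mouse was above the highest WT mouse, and the log2 fold change was 2.37 ± 0.41 (SE, adjusted p = 0.0158, edgeR). The barcode with the most *Timp1* UMIs gave 36.4%, 35.4% and 50.6% of them in Aromhum replicates 1, 2 and 3. In a WT mouse it gave at most 27.8%. Whether the genotypes stay apart without these barcodes was not tested. *Timp1* passed in 14 of 17 alternative settings, with log2 fold changes from 1.69 to 2.98. It did not pass within the limits of the paper, when thinned or without WT replicate 2. *Cxcl9*, a chemokine induced by interferon gamma that attracts T cells, was at 12.6, 1.97 and 13.7 CPM in the WT mice and at 103, 91.9 and 55.1 CPM in the Aromhum mice, with a log2 fold change of 2.89 ± 0.43 (SE, adjusted p = 0.00816, edgeR). Only 19 members had a *Cxcl9* UMI, and the barcode with the most gave 64.3%, 84.2% and 80.0% of them in Aromhum replicates 1, 2 and 3. *Cxcl5* was at 817, 385 and 581 CPM in the WT mice and at 2429, 1474 and 1015 CPM in the Aromhum mice, again with no overlap, and just missed the threshold with a log2 fold change of 1.42 ± 0.29 (SE, adjusted p = 0.0508, edgeR).

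UMIs of *C3* and *Timp1* lay in a minority of the members, which had a lower median of *Apod*. A *C3* UMI was found in 84 of the 422 members, whose median was 135 *Apod* UMIs per 10000, against 225 in the members without one. The order was the same within each genotype, at 179 and 239 in WT and at 122 and 218 in Aromhum members. For *Timp1* these were 120 members, with medians of 163 and 221. *Lbp* and *Kng2*, which also rose, had the same order in both genotypes, at 146 and 225 and at 120 and 220 over all members. So had *Saa1*, which fell, at 159 and 221. *Thbs4* and *Hilpda*, which rose, had the reverse order in both genotypes, at 271 and 164 and at 232 and 184. So had *Angptl7*, which fell, at 253 and 184. These barcodes were not thinned to equal depth. For *Cxcl5*, *C4b* and *Cxcl9* the order differed between the genotypes. For *Cxcl5* it was 216 with and 226 without a UMI in WT and 229 and 147 in Aromhum members. For the other two, in WT it was 238 with and 224 without for *C4b* and 295 and 221 for *Cxcl9*, and in Aromhum members 134 and 210.3, and 118 and 197. The summed list of *Mmp3*-high HAF markers was at 4209 to 5641 CPM in WT and 5893 to 6800.3 CPM in Aromhum mice, most of it from *Cxcl14* and *Ptx3*, each of which overlapped between genotypes, and *Mmp3* itself was at 0 in WT replicates 1 and 3 and Aromhum replicate 1. The list of fibro-adipogenic progenitors was at 3035 to 3173 CPM in WT and 3422 to 6314 CPM in Aromhum mice, most of it from the chemokine gene *Ccl7*. The sum of the pan-fibroblast list went the other way, at 58866 to 74372 CPM in WT and 55676 to 56375 CPM in Aromhum mice, most of it from *Dcn*. None of its 8 genes passed between genotypes, 5 had a positive log2 fold change, and the median was 0.03. The part of other fibroblasts among the members in these differences was not tested. In endothelial-like column groups the mean of *C3* was 25.2 CPM in WT and 137 CPM in Aromhum mice, that of *Lbp* 55.9 and 214 CPM, and that of *Timp1* 25.8 and 103 CPM, and the part of free RNA was not tested.

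Genes of other functions rose as well. *Thbs4*, a thrombospondin of tendon and muscle matrix, was at 119, 98.3 and 129 CPM in the WT mice and at 275, 299.7 and 229 CPM in the Aromhum mice, a log2 fold change of 1.14 ± 0.19 (SE, adjusted p = 0.0146, edgeR). *Hilpda*, a lipid droplet protein induced by low oxygen, was at 119, 122 and 152 CPM in the WT mice and at 308, 358 and 248 CPM in the Aromhum mice, a log2 fold change of 1.12 ± 0.19 (SE, adjusted p = 0.0148, edgeR). *Mest*, an imprinted gene of the hydrolase fold, was at 124, 181 and 118 CPM in the WT mice and at 359, 271 and 274 CPM in the Aromhum mice, a log2 fold change of 1.05 ± 0.20 (SE, adjusted p = 0.0409, edgeR) that came to -0.03 within the limits of the paper. In each of these 3 genes the genotypes did not overlap. The interferon-inducible *Ifi203*, one of a family of close copies among which reads may be split, had a log2 fold change of 0.90 (adjusted p = 0.0417), and *Ywhag*, a 14-3-3 adaptor protein, of 1.12 (adjusted p = 0.0482), both from edgeR. They passed in 8 and 5 of 17 alternative settings.

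Of the genes that fell, *Foxs1*, a forkhead transcription factor, was at 90.8, 94.4 and 71.3 CPM in the WT mice and at 18.3, 19.3 and 27.5 CPM in the Aromhum mice. The highest Aromhum mouse was below the lowest WT mouse, and the log2 fold change was -1.87 ± 0.28 (SE, adjusted p = 0.00816, edgeR). *Angptl7*, a secreted angiopoietin-like protein, was at 285, 454 and 373 CPM in the WT mice and at 154, 203 and 140.4 CPM in the Aromhum mice, a log2 fold change of -1.26 ± 0.21 (SE, adjusted p = 0.0146, edgeR). *Adm*, which encodes the vasodilator peptide adrenomedullin, was at 70.6, 86.5 and 61.7 CPM in the WT mice and at 29.3, 19.3 and 30.3 CPM in the Aromhum mice, a log2 fold change of -1.41 ± 0.28 (SE, adjusted p = 0.0415, edgeR), the least stable of the 6, since it passed in 6 of 16 alternative settings.

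The other two that fell were genes of endothelium. *Gpihbp1*, which holds lipoprotein lipase on capillary walls, was at 45.4, 45.2 and 53.5 CPM in the WT mice and at 0, 14.5 and 8.26 CPM in the Aromhum mice, where 0 UMIs in replicate 1 allow up to 11.0 CPM, and *Aqp1*, a water channel, was at 88.3, 84.5 and 90.5 CPM in the WT mice and at 36.6, 19.3 and 37.2 CPM in the Aromhum mice. Their log2 fold changes were -2.71 (adjusted p = 0.0146) and -1.43 (adjusted p = 0.0189), both from edgeR. The endothelial marker list summed to 80.7, 96.3 and 128 CPM in the WT and 44.0, 53.2 and 63.3 CPM in the Aromhum mice, also without overlap. Just 12 members held at least 3 UMIs of that list, 1, 2 and 4 in the WT and 2, 1 and 2 in the Aromhum mice. They gave 84 of 89 *Gpihbp1* UMIs and 152 of 185 *Aqp1* UMIs. Without these 12 barcodes both genes fell under the count filter, and 13 of the 17 genes passed.

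**Figure D3:**
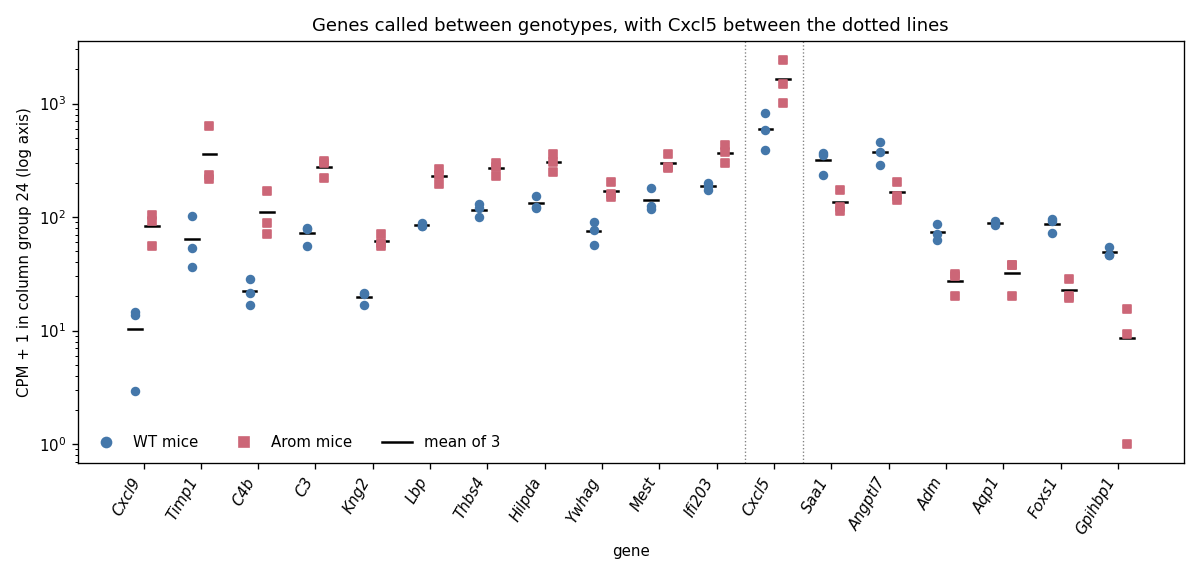
CPM plus 1 on a log axis in each mouse for the 17 genes that passed the test between genotypes in column group 24 and, between dotted lines, for *Cxcl5*, which did not. Circles are WT mice, squares Aromhum mice and lines the mean of 3. The 3 mice of one genotype lie above the 3 of the other in every gene shown.

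*C3*, *Kng2* and *Saa1* are shown by their promoters because each held a match to a motif of the C/EBP factors, which drive acute phase genes in liver, while the first 2 rose and *Saa1* fell. The sequences are the 250 bases before the RefSeq start on GRCm38.p6, read 5′ to 3′ along the gene, with the match in capitals.
C3, chr17:57228137-57228386, minus strand: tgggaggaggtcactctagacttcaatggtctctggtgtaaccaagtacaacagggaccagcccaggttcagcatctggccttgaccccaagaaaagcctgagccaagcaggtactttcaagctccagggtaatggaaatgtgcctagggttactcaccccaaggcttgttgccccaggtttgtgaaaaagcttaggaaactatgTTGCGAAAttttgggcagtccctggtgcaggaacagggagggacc
Kng2, chr16:23029102-23029351, minus strand: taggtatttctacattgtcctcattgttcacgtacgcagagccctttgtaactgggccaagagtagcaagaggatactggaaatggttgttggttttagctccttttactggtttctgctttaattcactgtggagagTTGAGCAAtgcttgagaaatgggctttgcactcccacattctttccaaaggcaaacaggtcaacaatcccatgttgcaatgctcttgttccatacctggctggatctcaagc
Saa1, chr7:46742981-46743230, minus strand: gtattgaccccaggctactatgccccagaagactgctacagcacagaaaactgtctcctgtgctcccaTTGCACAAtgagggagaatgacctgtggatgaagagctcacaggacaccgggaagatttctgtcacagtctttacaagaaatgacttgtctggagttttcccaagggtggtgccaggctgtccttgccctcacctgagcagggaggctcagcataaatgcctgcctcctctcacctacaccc
For *Kng2* the RefSeq start differs from that of the GENCODE gene, chr16:22985854-23029482 on the minus strand, which holds the stretch shown. The letters searched were TTNNGCAA on either strand, and the matches began 45, 112 and 182 bases before the start. Promoter windows of RefSeq, from 250 bases before to 50 after the start, held a match in 9.56% of 32851 entries and in 4 of the 13 called genes with an entry, *Mest* being the 4th. An NF-kB motif was found in 4.65% of entries and in 2 of the 13, and the palindromic estrogen response element in 0.0639% and in 0 of the 13. A match of letters is not a bound site.

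Estrogen receptor transcripts were scarce in these cells. *Esr1*, which encodes estrogen receptor alpha, was at 10.1, 11.8 and 4.11 CPM in the WT mice and at 14.7, 9.67 and 4.13 CPM in the Aromhum mice, a mean of 9.07 ± 4.22 CPM against 75.8 ± 26.2 in the other fibroblast-like groups, and was too low to be tested. *Pgr*, the progesterone receptor and a classical estrogen target, had 1 UMI in the 422 members. *Greb1*, another estrogen target, was at 30.3, 23.6 and 6.86 CPM in the WT mice and at 29.3, 24.2 and 28.9 CPM in the Aromhum mice, with a log2 fold change of 0.57 ± 0.46 (SE, adjusted p = 0.756, edgeR). In the other fibroblast-like groups its log2 fold change was 2.09 (adjusted p = 0.0168), and the difference between the 2 effects was -1.38 ± 0.42 with an adjusted p of 0.0756 in edgeR, which does not pass.

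No marker of the group passed between genotypes, though *Cxcl5*, given above, passed in 10 of 17 alternative settings, with log2 fold changes from 1.00 to 1.70. *Dlk1* passed in 1 of 17, without Aromhum replicate 3, and its log2 fold changes ran from 0.21 to 1.07. The log2 fold change was -0.24 (adjusted p = 0.732) for *Apod*, 0.71 (adjusted p = 0.531) for *Dlk1*, -0.42 (adjusted p = 0.393) for *Gpc3*, -0.24 (adjusted p = 0.709) for *Cp* and 0.44 (adjusted p = 0.592) for *Trf*, all from edgeR. Other lists had few calls or none. Against shares of 0.238% higher and 0.130% lower over all genes tested, the matrix and profibrotic list had 1 higher and 0 lower of 36 tested (median log2 fold change 0.18), the 1 gene being *Timp1*. The chemokine and cytokine list had 1 higher and 0 lower of 18 tested (median log2 fold change 0.24), which was *Cxcl9*, and the imprinted list had 1 higher and 0 lower of 15 tested (median log2 fold change -0.01), which was *Mest*. No member passed of the lists for iron and copper handling (13 tested), lipid and retinoid carriers (14), glypicans and insulin-like growth factors (11), the Notch pathway (5) or the Hedgehog pathway (4). The adipogenesis list had 0 higher and 0 lower of 10 tested (median log2 fold change -0.42), and the immediate early and heat shock list had 0 higher and 0 lower of 18 tested (median log2 fold change -0.39). In each of these 2 lists, 5 genes had every Aromhum mouse below every WT mouse. Over all genes tested, 15.1% had no overlap in either direction. The adipogenesis list summed to 7984 to 8580 CPM in WT and 5966 to 7551 CPM in Aromhum mice, and the immediate early sums overlapped. The imprinted list summed to 3741 to 3853 CPM in WT and 4568 to 5477 CPM in Aromhum mice.

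Whether the genotype acted differently here than in the other fibroblast-like groups was tested on the difference itself, with the mouse as a term. *Gpc3* and *Myoc* fell in the others and did not pass in column group 24, while *Nppc* and *Adamtsl2* rose there and did not pass here. Of 12638 genes, 133 passed in edgeR's test (1.05%), 60 with a higher (0.475%) and 73 with a lower (0.578%) effect in column group 24. Against column group 8 alone, the most similar in levels, 50 of 11925 passed (0.419%), 15 higher (0.126%) and 35 lower (0.294%). The 2 comparisons share the column group 24 sums, and column group 8 gave 15972 of the 23940 barcodes of the others. They are thus not independent, and 45 genes passed in both. The sums over the others mix 5 column groups, and the part of that mixture was not tested. The counts depend on the test: limma voom gave 27 and 1 calls, of which 6 and 0 were among those of edgeR. The fewest under any other setting were 4 and 0, with the replicate number in place of the mouse term.

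*Gpc3* was at 1021, 1105 and 952 CPM in the WT mice and at 722, 861 and 794 CPM in the Aromhum mice in column group 24, where the Aromhum mice also lay below the WT mice. In the other fibroblast-like groups it was at 128, 239 and 198 CPM in the WT mice and at 26.9, 32.7 and 79.6 CPM in the Aromhum mice, where every Aromhum mouse lay below every WT mouse. The log2 fold change there was -2.05 (adjusted p = 0.0288), and the difference of the effects was 1.69 ± 0.20 (edgeR adjusted p = 3.21e-12, limma voom 0.158), and 0.93 within the limits of the paper (edgeR adjusted p = 0.0813). The mean was lower in Aromhum mice in each of the 5 other column groups, for example 219 CPM in WT against 70.8 in Aromhum mice in column group 8 and 233 against 71.0 in column group 3.

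*Dlk1* was at 139, 106 and 128 CPM in the WT mice and at 337, 193 and 124 CPM in the Aromhum mice in column group 24. In the others it was at 1.93, 4.50 and 3.85 CPM in the WT mice and at 0.346, 0.972 and 0.708 CPM in the Aromhum mice, a log2 fold change of -2.33 (adjusted p = 0.0263). In endothelial-like column groups, which should lack the gene, it was also lower in each Aromhum mouse, at 0.945 ± 0.372 CPM in WT and 0.270 ± 0.0451 CPM in Aromhum mice, so the values in the others are not read as a change of expression there, and the part of free RNA was not tested. The difference of the effects was 3.01 ± 0.31 (edgeR adjusted p = 8.38e-17, limma voom 0.153), and it was -0.67 against column group 26, where *Dlk1* was at 0.135 ± 0.330 CPM. *Myoc*, which encodes the secreted protein myocilin, was at 1074, 1683 and 949 CPM in the WT mice and at 1227, 879.9 and 1298 CPM in the Aromhum mice in column group 24 and at 1296, 2057 and 1499 CPM in the WT mice and at 252, 183 and 722 CPM in the Aromhum mice in the others. Its difference was 2.13 ± 0.20 (edgeR adjusted p = 2.31e-19, limma voom 0.0399), and 0.92 within the limits of the paper (edgeR adjusted p = 0.077), which does not pass. Against column group 26 alone it was 0.41 (edgeR adjusted p = 0.929). There *Myoc* was at 262 ± 135 CPM in WT and 228 ± 228 CPM in Aromhum mice, and the genotypes overlapped.

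Genes with a lower effect in column group 24 included a natriuretic peptide and collagens. *Nppc*, which encodes C-type natriuretic peptide and is on the *Esr1*-high HAF list, was at 161, 147 and 96.0 CPM in the WT mice and at 278, 184 and 159.7 CPM in the Aromhum mice here and at 77.3, 51.4 and 73.2 CPM in the WT mice and at 1134, 979.8 and 487 CPM in the Aromhum mice in the others. The difference was -3.01 ± 0.23 (edgeR adjusted p = 2.16e-28, limma voom 0.0115), but -0.55 within the limits of the paper (edgeR adjusted p = 0.981), which does not pass. *Adamtsl2*, a protein of the microfibril, was at 156, 126 and 53.5 CPM in the WT mice and at 73.3, 72.5 and 53.7 CPM in the Aromhum mice here and at 11.4, 12.2 and 19.02 CPM in the WT mice and at 71.3, 60.7 and 60.9 CPM in the Aromhum mice in the others, a difference of -2.96 ± 0.29 (edgeR adjusted p = 5.62e-19, limma voom 0.131). *Col3a1* was at 3929, 4441 and 3557 CPM in the WT mice and at 3415, 5729 and 4365 CPM in the Aromhum mice here and at 3819, 5813 and 5892 CPM in the WT mice and at 12379, 9799.8 and 8933 CPM in the Aromhum mice in the others, a difference of -0.91 ± 0.20 (edgeR adjusted p = 0.00162, limma voom 0.292). Of the 43 genes of the matrix list, 1 had a higher and 10 a lower effect in column group 24 than in the other fibroblast-like groups in edgeR's test, against 0.475% and 0.578% of all genes, and none of the 11 passed in limma voom.

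Of the 17 genes called between genotypes in column group 24, 13 had the same sign in the other fibroblast-like groups and 5 were called there in the same direction, where 7.41% of 14023 genes were called higher and 6.43% lower. The difference of effects passed in edgeR for 7 of the 17. *Saa1* was among them: in the others it was at 1.23, 4.22 and 4.79 CPM in the WT mice and at 36.9, 38.6 and 1.64 CPM in the Aromhum mice, and its difference was -3.34 ± 0.31 (edgeR adjusted p = 2.39e-20, limma voom 0.303). For *C3* the difference was 0.97 ± 0.24 against all others (edgeR adjusted p = 0.00967, limma voom 0.496) and 0.66 ± 0.29 against column group 8 (edgeR adjusted p = 0.636). Only the first passed in edgeR, and it did not pass in limma voom.

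*Ctla2a*, which encodes a cysteine protease inhibitor, was at 106, 15.7 and 213 CPM in the WT mice and at 87.9, 106 and 34.4 CPM in the Aromhum mice in column group 24, where the genotypes overlapped. In the other fibroblast-like groups it was at 3459, 241 and 1360.3 CPM in the WT mice and at 12410.1, 12690.4 and 2766 CPM in the Aromhum mice, and the difference of the effects was -3.13 ± 0.29 (edgeR adjusted p = 1.72e-20, limma voom 0.175). *Ifi203* was the opposite case, higher in Aromhum mice here and at 57.9, 64.9 and 63.7 CPM in the WT mice and at 41.5, 29.0 and 40.7 CPM in the Aromhum mice in the others. Its difference was 1.65 ± 0.22 (edgeR adjusted p = 1.94e-10, limma voom 0.0399).

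**Figure D4:**
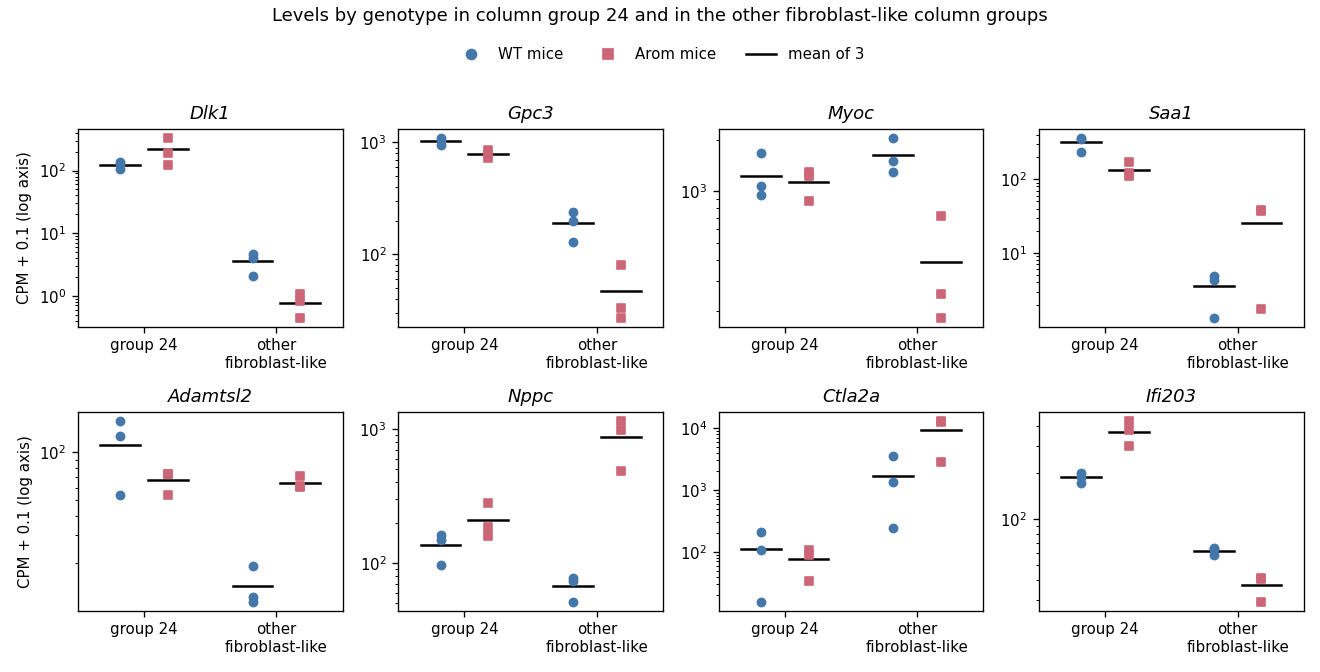
CPM plus 0.1 on a log axis in each mouse for 8 genes whose genotype effect differed between column group 24 and the other fibroblast-like column groups in edgeR's test. Circles are WT mice, squares Aromhum mice and lines the mean of 3; *Gpc3* and *Myoc* are lower in every Aromhum mouse of the other groups, and *Nppc* and *Adamtsl2* are higher in every one.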

How the data were processed

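Single cells of the LAM of 3 WT and 3 Aromhum mice were measured with the 10x Genomics 3′ method. The authors aligned and counted reads with Cell Ranger 3.0.2, on a mouse reference to which human *CYP19A1* was added, and deposited 1 table of raw UMI counts per gene and barcode (16494 genes, 63647 barcodes), whole numbers with no normalization. The genotype and number of each sample came from the labels. Columns return to the same sample after each 6 runs, and the 180 runs gave 30 column groups, which were scored by lists of marker genes. The members, lists and tests were chosen with earlier results of these data known.

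UMIs of the barcodes with at least 500 UMIs were summed per mouse, and CPM were computed from these sums. Genes were tested with edgeR 4.0.16 (TMM, filterByExpr, quasi-likelihood test) in R 4.3.3, with Benjamini-Hochberg adjustment over all genes tested at 0.05. Differences of genotype effects were tested as an interaction of cell group and genotype with the mouse as a term. Shares were tested with exact permutation tests, and floors are 3 counts. DESeq2 1.42.0 and limma 3.58.1 were alternatives. Scripts were tested on simulated data. Doublets were marked with Scrublet in scanpy 1.11.5 at a score of 0.25, chosen after seeing that the automatic threshold marked 0 barcodes in the WT samples, and were kept. Each library is 1 animal, and 3 animals per genotype limit every test.

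Genes were named by a rule that covers the 6 markers, the genes called between genotypes, *CYP19A1*, *Esr1*, *Pgr* and *Greb1*, of each list the called members and the 4 highest, the 20 genes with the largest ratio to other fibroblast-like groups, and the 6 genes with the lowest p in each interaction test. The rule gave 151 genes, and the text does not describe all of them. Alternatives changed the size factors, the count filter, the limits on barcodes, the depth, the tool, the block and the mice.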

Additional observations from a re-analysis of the deposited data

Results flagged for a closer look

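Genotype effects that differed between column group 24 and other fibroblasts, by edgeR's test of the difference (log2, column group 24 minus the others), are listed here with no explanation weighed. Of these tests, the ones with the lowest p and those on the 6 markers were examined. Against the other fibroblast-like groups the difference was 3.01 for *Dlk1*, 1.69 for *Gpc3* and 2.13 for *Myoc*, and against column group 8 it was 2.57, 1.24 and 1.57. The *Dlk1* values in the others, at most a few CPM, are not read as a change of expression there, since endothelial-like column groups, which should lack the gene, went from 0.945 CPM in WT to 0.270 CPM in Aromhum mice. Against column group 26 the *Myoc* difference was 0.41 (edgeR adjusted p = 0.929). It was -2.96 for *Adamtsl2* and -3.13 for *Ctla2a* against all others, and -2.49 and -3.05 against column group 8. For *Nppc*, *Saa1* and *Trf* it was -3.01, -3.34 and -1.22 against all others. *Trf* in the others was at 1.34 to 6.85 CPM, and it was also higher in Aromhum mice in endothelial-like column groups, at 11.1 against 3.51 CPM, so its difference has the same limit; the part of free RNA was not tested. For *Id1*, which encodes an inhibitor of transcription factors, it was 1.89 against column group 8 and 0.64 within the limits of the paper (edgeR adjusted p = 1), and for *Ndnf*, which encodes a secreted neurotrophic factor, it was -3.96. The *Ndnf* counts were too low to be tested between genotypes within column group 24.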

How the results depend on the processing

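The 17 genotype calls became 94 with no filter on low counts, 4 within the limits of the paper, 10 at most 5% mitochondrial UMIs and 5 when thinned to at most 3000 UMIs, and 11 to 49 when 1 mouse was left out (11 without WT replicate 2 or Aromhum replicate 2, 49 without Aromhum replicate 3). At most 5% mitochondrial UMIs, 9 of the 10 were higher. The 7 calls in pathway lists became 24, 3 and 2 under no filter, the limits of the paper and thinning, and 5 to 19 when 1 mouse was left out. Same-numbered mice deviated together with correlations of 0.042, 0.055 and 0.057, each the best of its row. Values this low cannot decide whether the numbers mark the dates, so the block was kept as an alternative. With the replicate block there were 23 genotype calls, 11 of them in lists. The 133 differences of effect against the other fibroblast-like groups became 4 with the replicate block, 21 within the limits of the paper, 27 with limma voom and 88 to 254 when 1 mouse was left out. In these tests of differences the block put the replicate number in place of the mouse term, so it no longer tied the 2 sums of a mouse. With the block the edgeR adjusted p was 0.376 for *Myoc*, 0.320 for *Gpc3*, 0.12 for *Dlk1*, 0.388 for *Saa1*, 0.449 for *Ctla2a* and 0.324 for *Trf*, none passing, and 0.00284 for *Nppc* and 0.0176 for *Adamtsl2*, which passed. The *Nppc* difference of -3.01 came to -0.55 within the limits of the paper. RLE size factors gave 84 higher and 70 lower in place of 60 and 73. The 50 against column group 8 became 85 with no filter, 0 with the replicate block (786 at an unadjusted p under 0.05), 3 within the limits of the paper, 1 with limma voom (926), 6 against column group 26, and 39 to 223 when 1 mouse was left out. Directions turned for *Mest* (-0.033 within the limits of the paper) and for the difference against the others of *Apod* (-0.22 within those limits). That of *Cp* was -0.34 to 0.036 when 1 mouse was left out and turned without WT replicate 2. Against column group 8, the difference of *Dlk1* turned to -0.67 with column group 26 in its place. That of *Apod* was -0.17 to 0.18 when 1 mouse was left out, with 0.0035 and 0.18 without WT or Aromhum replicate 2. Over all alternatives it was -0.47 to 0.18. That of *Cxcl5* was -0.25 to 0.57 when 1 mouse was left out, turned without Aromhum replicate 3, and -0.25 to 0.86 over all alternatives. The cause of these turns was not tested. Settings chosen after seeing the data gave 18 calls without the 12 barcodes of endothelial UMIs and 19 with at least 3 markers per barcode. No share difference changed direction. With the replicate block, the exact permutation p was 0.25 for both shares, the lowest possible there. By both denominators each Aromhum mouse lay below the WT mouse of the same number. DESeq2 gave 18 genotype calls, 14 among the 17. With 206853 UMIs in the shallowest sum, genes of few counts, such as *Esr1*, could not be tested.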
